A study of Mus musculus with 9 samples.

Results

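Tight junction genes are described here in mouse liver injured with thioacetamide (TAA), a hepatotoxin used to bring on fibrosis. The set holds 9 genes of 24532 in the count table: the scaffold genes Tjp1 and Tjp3, the claudin genes Cldn1, Cldn2, Cldn3, Cldn12 and Cldn14, the occludin gene Ocln, and F11r, which encodes junctional adhesion molecule A. They were selected by name with their read counts in the 3 groups of libraries already in view, so their differences between groups are a description and carry no test. All 9 were among the 14731 genes that had enough reads to be tested.

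All mice were wild-type C57BL/6 and received TAA into the peritoneum at a rising dose, 2 times a week, for 10 weeks. The control group, called TAA here, also received saline (replicates 12, 13 and 14). The 2-week group received recombinant human cytoglobin (rhCYGB), a heme protein, at 2 mg/kg through the tail vein 2 times a week during the last 2 weeks of TAA (replicates 17, 18 and 19). The 5-week group received the same dose and schedule during the last 5 weeks (replicates 23, 27 and 28). Livers were taken 2 days after the last rhCYGB dose, and the age and sex of the mice are not given in the sources used here. Every group carried the TAA injury, and liver without TAA was not analysed here.

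Tight junctions seal the gap between neighbouring epithelial cells. In liver they separate the bile canaliculus, the narrow channel between hepatocytes into which bile is secreted, from the blood side, and they also join the cholangiocytes that line bile ducts. Claudins, occludin and junctional adhesion molecules span the membrane and meet their partners on the next cell. Claudins set which ions and small solutes may pass, and the zonula occludens scaffolds encoded by Tjp1 and Tjp3 tie the membrane proteins to actin.

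The 9 libraries held 55655727 to 87289945 estimated reads. Levels below are CPM, read counts relative to library size after scaling between libraries by the trimmed mean of M values (TMM), and levels between genes are compared only in FPKM, which also divides by transcript length. Replicates 17, 18 and 23 stood apart on the first principal component (32.3% of the variance), at -39.4, -44.1 and 78.8 against -20.5 to 20.2 in the other 6 libraries. Summed hepatocyte markers, 8 genes that include albumin, reached 100243 to 148042 CPM, and none of the markers of the 8 cell type and zone lists was at 0 in every library. In whole liver, fewer cells of a type and less RNA per cell cannot be told apart.

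Per length, Cldn3 was the most abundant of the 9 genes in every group, and Tjp1 the least by the median over all libraries. The median FPKM over the 9 libraries was 80.1 for Cldn3, 27.6 for F11r, 15.3 for Cldn1, 10.2 for Tjp3, 8.87 for Cldn2, 8.58 for Cldn14, 5.04 for Cldn12, 4.62 for Ocln and 3.36 for Tjp1. Cldn3 exceeded F11r and F11r exceeded Cldn1 in 9 of 9 libraries, and Cldn1 exceeded Tjp3 in 8 of 9. Tjp3, Cldn2, Cldn14 and Cldn12 were not separated by their spread: Tjp3 exceeded Cldn2 in 6 of 9 libraries, Cldn2 exceeded Cldn14 in 3 of 9, and Cldn14 exceeded Cldn12 in 6 of 9. At the low end Ocln exceeded Tjp1 in 8 of 9 libraries, although their ranges overlapped. The lower ranks by median differed by group. Tjp1 was last in TAA and after 5 weeks, and Cldn12 was last after 2 weeks (median 0.034 FPKM against 2.13 for Tjp1). In replicate 19 of the 2-week group, however, Cldn12 was at 5.04 FPKM, above Tjp1 at 2.75. Tjp3 was the fifth, the fourth and the seventh in TAA, after 2 weeks and after 5 weeks. Among the summed FPKM of the 5 claudin genes, Cldn3, a claudin of hepatocytes and bile duct cells, made up 51.0% (replicate 23) to 78.4% (replicate 18).

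**Figure D1:**
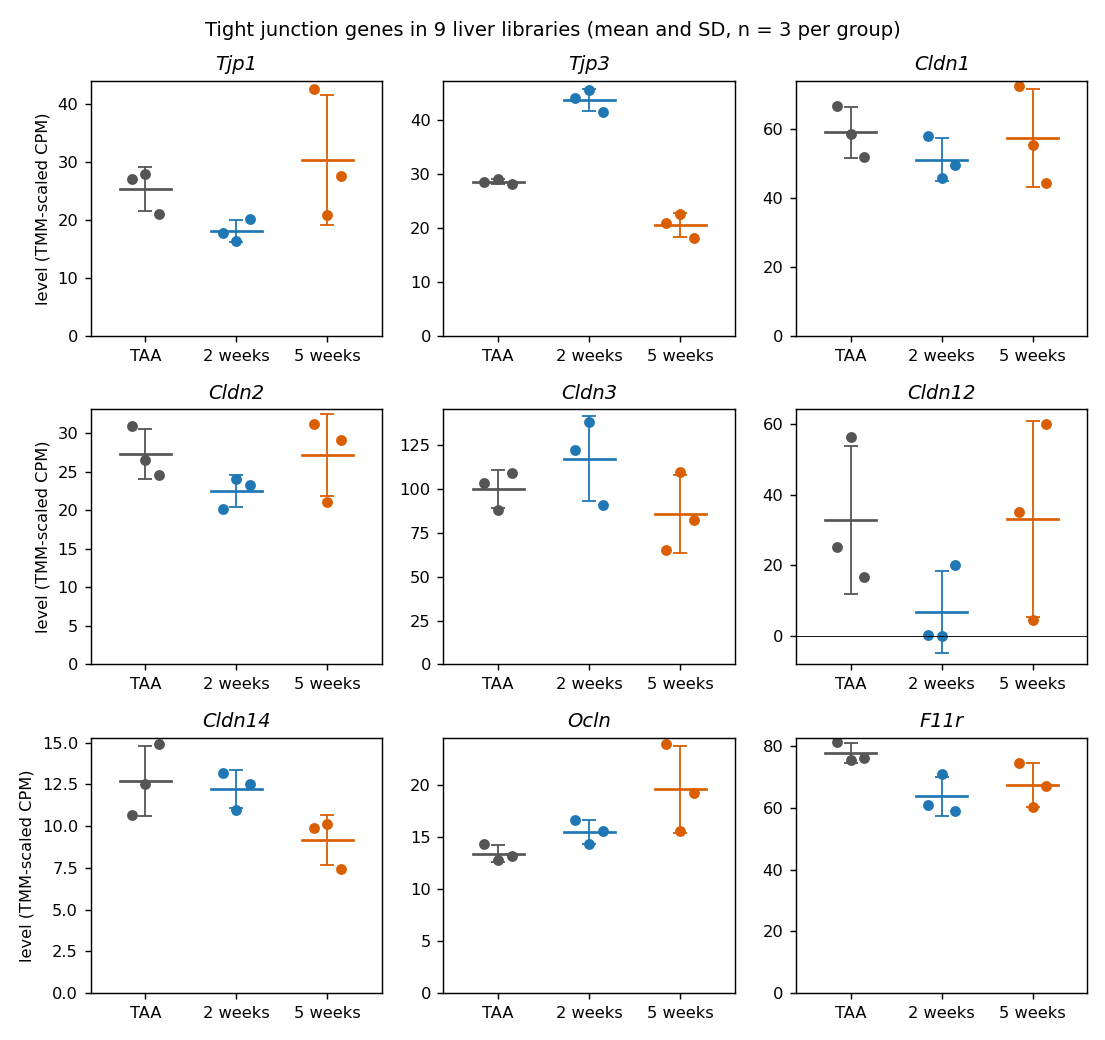
Level of each of the 9 genes (TMM-scaled CPM, linear axes from 0 except for Cldn12, whose SD bar reaches below 0) in each library. Points are libraries, long bars are group means and whiskers are SD (n = 3 per group): Tjp3 lies at 28.1 to 29.1 CPM in TAA, 41.4 to 45.6 CPM at 2 weeks and 18.1 to 22.6 CPM at 5 weeks, with no overlap between the groups.

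Tjp3 encodes zonula occludens 3, the scaffold found mainly in epithelial cells. The gene (gene ID 27375) lies on mm10 chromosome 10 from 81273188 to 81291581, minus strand. Its level was 28.4, 29.1 and 28.1 CPM in the TAA libraries 12, 13 and 14, then 44.0, 45.6 and 41.4 CPM in the 2-week libraries 17, 18 and 19. In the 5-week libraries 23, 27 and 28 it was 20.9, 22.6 and 18.1 CPM. The 3 groups did not overlap: every 2-week library was above, and every 5-week library below, all TAA libraries.

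The log2 difference of Tjp3 from TAA was 0.61 ± 0.12 (SE, n = 3 per group) after 2 weeks, a 1.53-fold higher level. It was -0.48 ± 0.12 after 5 weeks and -1.09 ± 0.12 for 5 weeks against 2 weeks, where the level after 2 weeks was 2.13-fold that after 5 weeks. Both comparisons with TAA use the same 3 control libraries. In edgeR's quasi-likelihood fit, an adjusted p under 0.05 (Benjamini-Hochberg over the whole table of tested genes) is termed a call here. It was reached after 2 weeks and for 5 weeks against 2 weeks, but not for 5 weeks against TAA. For 5 weeks against 2 weeks, calls covered 3 of 14731 genes (0.0204%): Tjp3, the DNA replication gene Mcm10 (2.31 ± 0.20) and the peroxisomal transporter gene Abcd2 (1.23 ± 0.13). For Tjp3 a call is a description, since the gene was selected on these values.

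The sign of each Tjp3 difference was kept in 18 of 18 alternative analyses. Its call after 2 weeks was lost without any one of replicates 12, 13, 14, 17 or 18 (0.58 to 0.61), with library totals in place of the scaling (0.28), in log2(FPKM + 1) (0.26), in log2(FPKM + 0.1) (0.28) and without replicates 17, 18 and 23 together (0.54), so that it held in 9 of 18. For 5 weeks against 2 weeks the call was lost without any one of replicates 12, 13, 14, 17, 18, 23 or 28 (-1.11 to -0.99), without replicates 17, 18 and 23 together (-1.03), with only the 2 groups compared (-1.08) and in log2(FPKM + 1) (-0.88), and it held in 8 of 18.

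Ratios of reads within a library do not depend on scaling between libraries, and those to Tjp1 and F11r were chosen after the values were seen. Per Tjp1 read there were 1.05, 1.04 and 1.33 Tjp3 reads in TAA, 2.47, 2.77 and 2.06 after 2 weeks, and 0.49, 1.09 and 0.65 after 5 weeks. Per F11r read there were 0.349, 0.385 and 0.369 Tjp3 reads in TAA, 0.722, 0.641 and 0.701 after 2 weeks, and 0.280, 0.375 and 0.270 after 5 weeks. On both ratios every 2-week library lay above all others, whereas the 5-week and TAA libraries overlapped in replicate 27. After 2 weeks Tjp1 and F11r themselves lay below TAA without overlap (log2 differences -0.49 and -0.29), which raises both ratios. The ratios reuse the counts on which the genes were selected, so they are a description. They also do not remove a trend over gene length within a library.

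**Figure D2:**
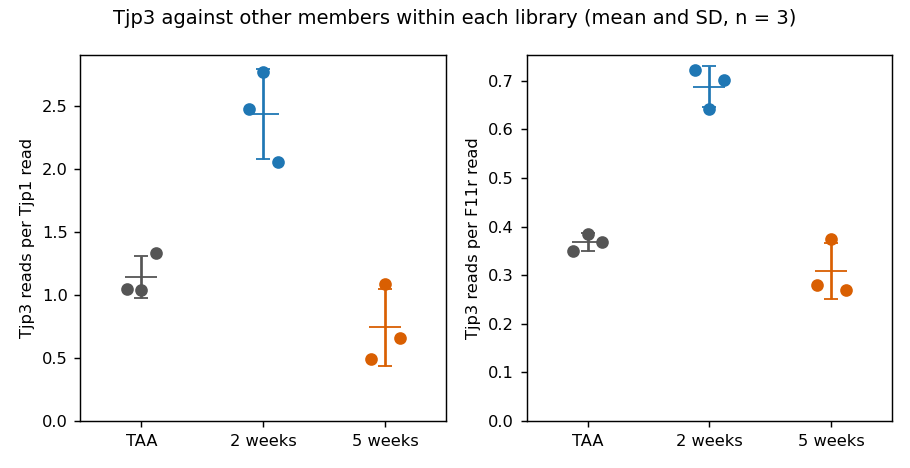
Tjp3 reads per Tjp1 read (left) and per F11r read (right) in each library, with group mean and SD (n = 3), on linear axes from 0. The 2-week libraries lie at 2.06 to 2.77 and 0.641 to 0.722, above all TAA and 5-week libraries.

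Of 3 annotated Tjp3 transcripts, NM_013769, which starts at 81291267, held 96.2 to 100% of the gene's FPKM in 7 libraries, 92.4% in replicate 28 and 77.2% in replicate 27. In replicate 27 the transcript NM_001282096, which starts inside the gene at 81285781, held the other 22.8%. The lower 5-week level was therefore present in library 23, where NM_013769 was the only transcript with reads, as well as in the mixed library 27. Tjp3 and its neighbour Apba3, an adaptor gene, share 60 annotated bases of 3043 in the transcript. Apba3 spanned 43.0 to 47.6 CPM in TAA, 56.1 to 74.0 CPM at 2 weeks and 36.9 to 51.7 CPM at 5 weeks (log2 differences 0.55 ± 0.15, 0.01 ± 0.15 and -0.53 ± 0.15, none called), and its part in the Tjp3 counts was not tested.

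The sequence before the main Tjp3 start is shown because the transcript from that start held nearly all estimated Tjp3 reads in most libraries. It comes from RefSeq on GRCm38.p6 (the mm10 build), chr10:81291268-81291463, minus strand, 196 bases 5′ to 3′, ending next to the transcript start. Capitals mark matches to the motifs searched on both strands, none of which overlapped another in the stretches shown. The GC box was searched by the letters GGGCGG and the CCAAT box by those of its name. The TATA box was searched as TATAAA, the Snail-type E-box as CACCTG, the AP-1 site under the letters TGANTCA, and the HNF1 half-site through the run GTTAAT.
Tjp3 upstream: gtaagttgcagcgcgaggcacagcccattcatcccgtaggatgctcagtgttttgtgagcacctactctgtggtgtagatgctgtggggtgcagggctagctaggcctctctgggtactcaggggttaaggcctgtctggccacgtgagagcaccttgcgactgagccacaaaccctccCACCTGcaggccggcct
The single match is an E-box whose first base lies 17 bases before the start. Of 32851 RefSeq windows of 250 bases before a start, 17.2% hold this E-box, 32.7% a GC box, 33.8% a CCAAT box, 12.4% the TATA box, 6.75% the AP-1 site and 6.43% the HNF1 half-site. A match is a run of letters and was not tested as a binding site.

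Tjp1 encodes zonula occludens 1, the scaffold shared by epithelial and endothelial junctions. The gene (gene ID 21872) lies on mm10 chromosome 7 from 65296165 to 65371244, minus strand. It stood at 27.1, 27.9985 and 21.1 CPM in TAA, 17.8, 16.5 and 20.1 CPM after 2 weeks, and 42.7, 20.8 and 27.6 CPM after 5 weeks. The 2-week libraries lay below all others, and the 5-week libraries overlapped TAA, with replicate 23 far above the rest.

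The log2 differences of Tjp1 were -0.49 ± 0.24, 0.26 ± 0.24 and 0.75 ± 0.24 (2 weeks against TAA, 5 weeks against TAA and 5 against 2 weeks), and none was called. The first was -0.24 once each library's trend over gene length was removed. Without replicate 23 the 5-week difference from TAA turned to -0.08, and that from 2 weeks fell to 0.42. With the scaling used and all 9 libraries Tjp1 and Tjp3 took opposite signs in each comparison, but for 5 weeks against TAA the sign of Tjp1 turned in 4 of 18 alternatives. Their profiles over the 9 libraries were the least alike of any pair that leaves out Cldn12 (root-mean-square distance of centred log2 levels 0.79).

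Tjp1 was read from 2 annotated transcripts, NM_009386 (7054 bases) and NM_001163574 (6874 bases). In the GENCODE M21 models tied to these names, the first includes an alternative coding exon of 240 bases that the second skips. The 2 lengths differ by less than this exon. The annotated transcripts therefore also differ elsewhere, and their shares do not measure this exon alone. In the longer model the exon is number 20 of 28 (the shorter model has 27), lies within the coding region and adds 80 codons. It spans chr7:65314093-65314332 (mm10), minus strand, and is shown because the transcript that holds it had its lowest shares in the 2-week libraries:
Tjp1 exon 20: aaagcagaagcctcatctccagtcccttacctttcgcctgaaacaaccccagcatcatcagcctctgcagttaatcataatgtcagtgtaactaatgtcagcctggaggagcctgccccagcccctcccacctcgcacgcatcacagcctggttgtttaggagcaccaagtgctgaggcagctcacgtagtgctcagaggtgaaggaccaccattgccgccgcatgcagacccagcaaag

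The estimated share of NM_009386 in the gene's FPKM was 68.9%, 59.4% and 48.9% in TAA libraries 12, 13 and 14. It was 18.5%, 20.5% and 42.3% in the 2-week libraries 17, 18 and 19, then 67.2%, 73.2% and 52.4% in the 5-week libraries 23, 27 and 28. The 2-week libraries lay below all 6 others, by 32.0 percentage points on average from TAA and 37.2 from 5 weeks. A 2-sided exact permutation test gave p = 0.1 for each of these, the smallest p that 3 libraries against 3 allow. After Benjamini-Hochberg adjustment over the 6 transcript share comparisons it was 0.3. Those 6 cover only NM_009386 and the Cldn14 transcript NM_001165926. Shares of the Tjp3 and Cldn12 transcripts were not tested, so the adjustment leaves them out. As the transcript was picked and p could not fall below 0.1, this test decides nothing and the shares are a description. Between 5 weeks and TAA the difference was 5.20 points (exact p = 0.6).

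The skipping transcript was steadier between TAA and 2 weeks: NM_001163574 stood at 1.31 to 1.89 FPKM in TAA and 1.59 to 1.74 after 2 weeks. NM_009386 stood at 1.64 to 2.90 FPKM in TAA against 0.395 to 1.16 after 2 weeks. The lowest shares belonged to replicates 17 and 18, which also stood apart over all genes, and replicate 19 was at 42.3% against a lowest TAA value of 48.9%. Transcript values are the authors' estimates from reads that mostly fit both transcripts, and no reads over the exon's splice junctions were analysed here.

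**Figure D3:**
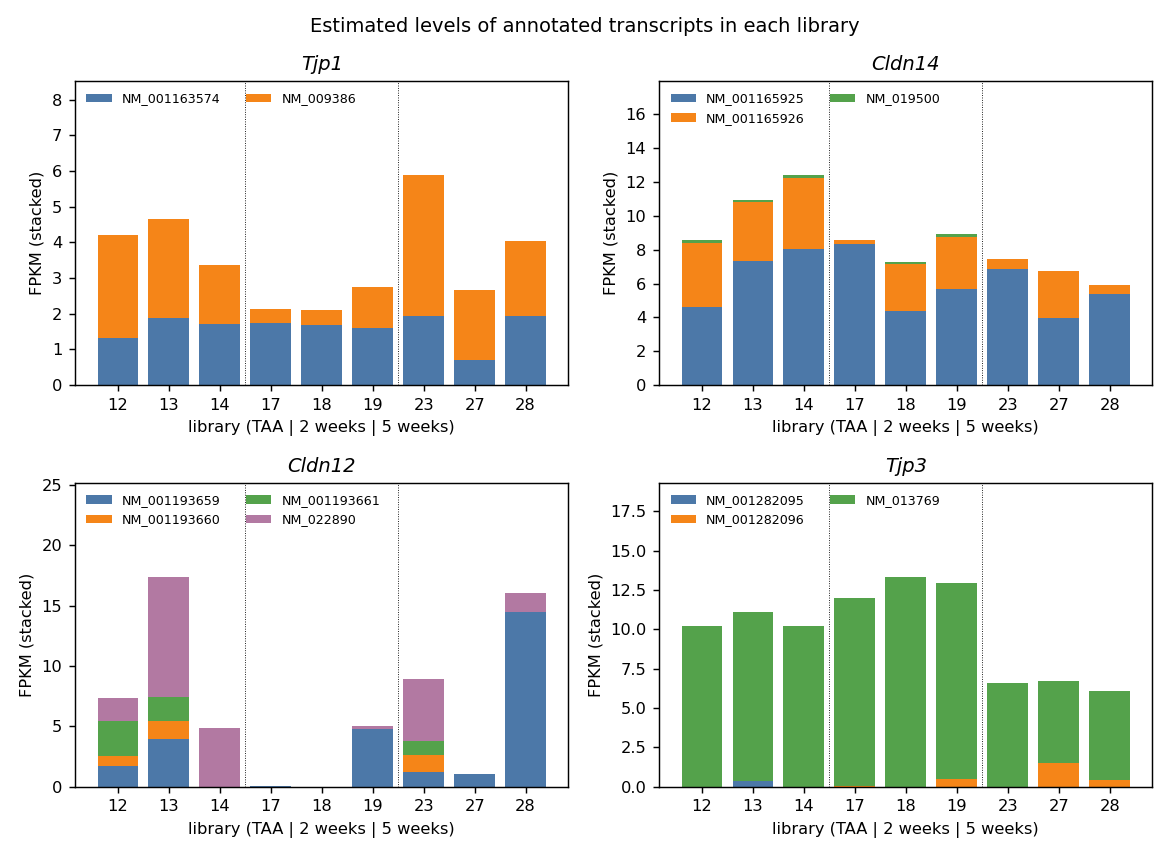
Estimated FPKM of each annotated transcript of Tjp1, Cldn14, Cldn12 and Tjp3, stacked for each of the 9 libraries, named by replicate number and ordered by group. In the Tjp1 panel NM_009386 makes up 18.5 to 42.3% of the bar in the 2-week libraries and 48.9 to 73.2% in the others.

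The 250 bases before the single annotated Tjp1 start are shown beside those of Tjp3 because the 2 scaffolds differ in this stretch: it holds 63.2% G and C, against a median of 52.4% over all windows and 57.2% in the 250-base window of the Tjp3 start. It lies at chr7:65371245-65371494 (GRCm38.p6, RefSeq), minus strand, with motif matches in capitals.
Tjp1 upstream: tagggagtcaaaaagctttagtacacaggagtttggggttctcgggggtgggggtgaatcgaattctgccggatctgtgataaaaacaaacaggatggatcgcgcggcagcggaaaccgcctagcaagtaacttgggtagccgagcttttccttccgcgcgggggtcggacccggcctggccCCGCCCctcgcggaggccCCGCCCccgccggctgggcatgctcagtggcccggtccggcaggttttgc
The capitals are GC boxes in reverse orientation, 68 and 50 bases before the start, and no other motif of those searched was matched. Over all 9 genes, 15 such windows were found, of which 8 hold a GC box, 8 a CCAAT box, 5 the E-box, 2 the HNF1 half-site, 1 the AP-1 site and 1 (Cldn2) the TATA box.

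Among the claudins, Cldn1 and Cldn3 are sealing claudins and Cldn2 forms a channel for small cations and water. Cldn3 (gene ID 12739, chromosome 5, 134986214 to 134987476) stood at 103, 87.8 and 109 CPM in TAA, 122, 138 and 90.7 CPM after 2 weeks, and 65.2, 109 and 82.2 CPM after 5 weeks. The groups overlapped, and replicates 18 and 23 were the highest and lowest of the 9 libraries. Its log2 differences were 0.23 ± 0.21, -0.22 ± 0.21 and -0.45 ± 0.21. The first turned to -0.11 with library totals alone and to -0.14 without replicates 17, 18 and 23, and the third turned to 0.08 without those 3 replicates and was -0.20 with the length trend removed.

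Cldn1 (gene ID 12737, chromosome 16, 26356646 to 26371839) was at 66.5, 58.4 and 51.8 CPM in TAA, 58.0, 45.8 and 49.4 CPM after 2 weeks, and 72.3, 55.2 and 44.3 CPM after 5 weeks. All groups overlapped, with log2 differences of -0.21 ± 0.19, -0.04 ± 0.19 and 0.17 ± 0.19. Cldn2 (gene ID 12738, chromosome X, 139800808 to 139811388) was at 30.9, 26.5 and 24.5 CPM in TAA and 20.2, 23.99 and 23.3 CPM after 2 weeks. These 2 groups did not overlap, by a narrow margin of 23.99 against 24.5 CPM, and the log2 difference was -0.28 ± 0.17. After 5 weeks Cldn2 stood at 31.2, 21.1 and 29.0 CPM, which spanned the TAA range (-0.01 ± 0.17, and 0.27 ± 0.17 against 2 weeks).

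Cldn14 encodes a claudin known from the inner ear and kidney and also read in liver. The gene (gene ID 56173, chromosome 16, 93919031 to 94008837, minus strand) stood at 10.7, 12.5 and 14.9 CPM in TAA and 13.2, 10.98 and 12.5 CPM after 2 weeks, which overlapped. After 5 weeks it was lower, at 9.92, 10.1 and 7.45 CPM, below all 6 other libraries. The log2 differences were -0.06 ± 0.17, -0.47 ± 0.17 and -0.42 ± 0.17, none called. The difference of 5 weeks from 2 weeks was -0.16 once the length trend was removed, the smallest of the alternatives.

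Cldn14 has 3 annotated starts. NM_001165925 (start 93929567) was the larger transcript in every library, at 53.99 to 97.2% of the gene's FPKM. NM_001165926, which starts 250 bases upstream at 93929817, held 43.8%, 31.8% and 34.2% in TAA, 2.84%, 38.1% and 34.6% after 2 weeks, and 7.68%, 41.5% and 8.75% after 5 weeks. Replicates 17, 23 and 28 thus held under 10% of this transcript and the other 6 libraries over 30%. Each treated group held libraries of both kinds. The 2-sided exact permutation p was 0.6, 0.3 and 1 for the 3 comparisons, where 0.1 is the smallest that 3 libraries against 3 allow. The distant start at 94008837 (NM_019500) held at most 2.18%, and was at 0 in replicate 17 and in the 3 5-week libraries.

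The 2 upstream starts are set side by side because the estimated shares of their transcripts were unlike. These were 2.84 to 43.8% for the start at 93929817 and at most 2.18% for that at 94008837. Reads at the starts were not analysed here. Both stretches are 250 bases, minus strand, from RefSeq on GRCm38.p6, at chr16:93929818-93930067 and chr16:94008838-94009087, with motif matches in capitals.
Cldn14 upstream of 93929817: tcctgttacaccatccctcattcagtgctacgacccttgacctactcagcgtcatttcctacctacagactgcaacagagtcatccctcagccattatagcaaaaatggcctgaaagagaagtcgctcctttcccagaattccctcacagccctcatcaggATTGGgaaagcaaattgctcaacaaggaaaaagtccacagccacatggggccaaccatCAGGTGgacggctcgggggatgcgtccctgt
Cldn14 upstream of 94008837: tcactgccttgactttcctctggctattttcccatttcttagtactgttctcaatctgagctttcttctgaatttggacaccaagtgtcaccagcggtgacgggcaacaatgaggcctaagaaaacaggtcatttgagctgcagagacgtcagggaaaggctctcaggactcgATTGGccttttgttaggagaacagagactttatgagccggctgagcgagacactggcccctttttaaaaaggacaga
Each holds a CCAAT box in reverse orientation, 89 and 77 bases before its start, and the first also holds an E-box 31 bases before the start. They contain 51.6% and 47.6% G and C.

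Cldn12, a claudin that lacks the PDZ-binding end of most claudins, swung more than any other of the 9 genes. The gene (gene ID 64945, chromosome 5, 5505015 to 5514976) stood at 25.2, 56.4 and 16.8 CPM in TAA, 0.165, 0.063 and 20.2 CPM after 2 weeks, and 35.0, 4.62 and 59.9 CPM after 5 weeks. In replicates 17 and 18 it had 8 and 5 estimated reads, against 1107 in replicate 19 of the same group and 239 to 3935 in the other 6 libraries. The groups overlapped, and the log2 differences of -2.27 ± 1.51, 0.02 ± 1.43 and 2.29 ± 1.51 had errors to match.

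Without replicate 19 the 2-week difference of Cldn12 was -8.26 ± 1.40 and was called, and without replicates 17, 18 and 23 it was -0.70. The mix of its 4 transcripts swung as well: NM_022890 held 25.2%, 57.2% and 99.7% in TAA, whereas NM_001193659 held 94.8% in replicate 19, 90.3% in replicate 28 and 100% in replicate 27. Of 8756 genes that reached 10 CPM in at least 1 library, 24 (0.274%) differed 100-fold or more between libraries of 1 group, and Cldn12 was 1 of them. The cause was not tested, and no statement on Cldn12 between groups rests on these values.

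Ocln encodes occludin, which sits at contacts of 2 and 3 cells. The gene (gene ID 18260, chromosome 13, 100497367 to 100552498) was at 14.3, 12.8 and 13.1 CPM in TAA, 16.6, 14.3 and 15.5 CPM after 2 weeks, and 23.9, 15.6 and 19.2 CPM after 5 weeks. Both treated groups lay above TAA without overlap, with the nearest pair at 14.33 (2 weeks) and 14.30 CPM (TAA), and replicate 23 was the highest. The log2 differences were 0.21 ± 0.16, 0.55 ± 0.16 and 0.34 ± 0.16, none called. The first turned to -0.12 with library totals alone, and the second was 0.36 without replicate 23 and 0.26 in log2(FPKM + 1).

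F11r (gene ID 16456, chromosome 1, 171437561 to 171464593) encodes an immunoglobulin-like adhesion molecule also found on leukocytes and platelets. It was at 81.5, 75.5 and 76.2 CPM in TAA, 61.0, 71.1 and 59.1 CPM after 2 weeks, and 74.7, 60.4 and 67.1 CPM after 5 weeks. Both treated groups lay below TAA without overlap, with log2 differences of -0.29 ± 0.12 and -0.21 ± 0.12, and 5 weeks stood 0.08 ± 0.12 from 2 weeks. The 2-week difference became a call in 3 of 18 alternatives: with library totals alone (-0.62), in log2(FPKM + 1) (-0.60) and in log2(FPKM + 0.1) (-0.62). Over the 9 libraries F11r and Cldn2 were the pair with the closest profiles among the 9 genes (distance 0.14).

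**Figure D4:**
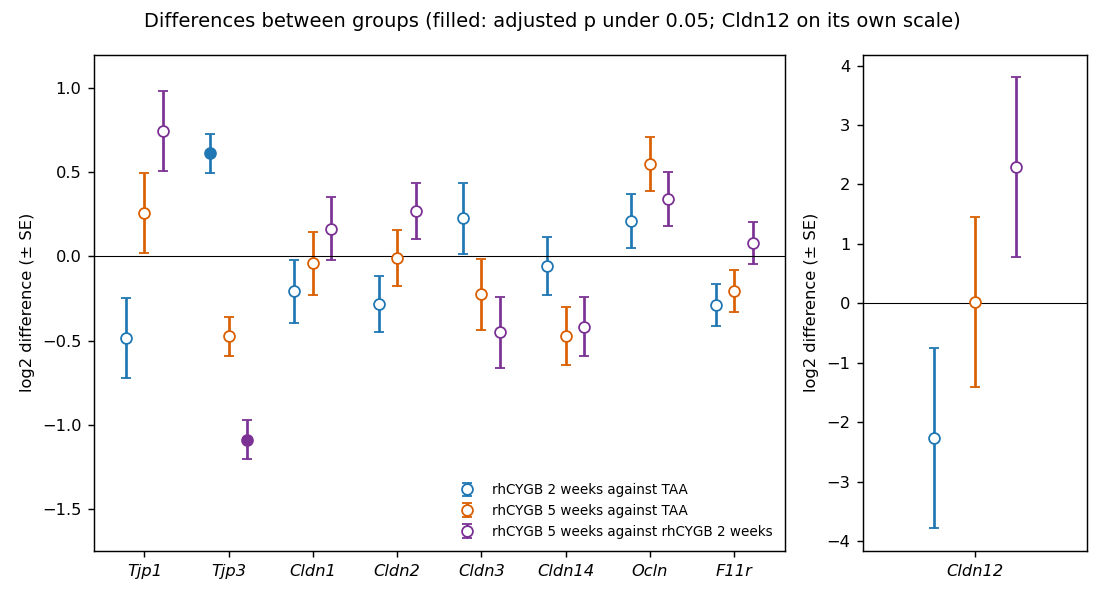
Log2 difference of each gene in the 3 comparisons, with SE as bars (3 libraries per group), Cldn12 on an axis of its own because its SE reaches 1.51. Filled points are calls, which are the Tjp3 values of 0.61 and -1.09, and every other point is open.

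Over the whole set, 1 of 9 genes was called after 2 weeks (Tjp3, higher), where 3.31% of tested genes were called (291 higher and 197 lower). None of the 9 was called for 5 weeks against TAA by edgeR, where 1.29% of genes were called (101 higher and 89 lower), and at an unadjusted p under 0.05 stood Tjp3, Cldn14 and Ocln, beside 19.2% of all genes (DESeq2 called 2, Tjp3 and Ocln, beside 1178 of 14731 genes). For 5 weeks against 2 weeks, 1 was called (Tjp3, lower), beside 0.0204% of tested genes (3 of 14731, Tjp3 included).

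Groups of libraries that did not overlap were seen for 5 of 9 genes after 2 weeks (Tjp3 and Ocln higher, Tjp1, Cldn2 and F11r lower), beside 33.7% of all tested genes. The count was 4 of 9 for 5 weeks against TAA (Ocln higher, Tjp3, Cldn14 and F11r lower), beside 25.0%, and 3 of 9 for 5 weeks against 2 weeks (Tjp1 higher, Tjp3 and Cldn14 lower), beside 21.1%. Median log2 differences of the 9 were -0.21, -0.04 and 0.17, beside -0.03, 0.01 and -0.01 for all tested genes. As the genes were picked on these values, nothing is read from the counts. With library totals alone the median of all genes was -0.36, -0.21 and 0.10, so directions hold relative to the scaling used. Of the calls over all genes after 2 weeks, 59.6% were higher, against 45.1% after upper-quartile scaling, 6.39% when library totals were used and 7.17% in log2(FPKM + 1). In the 5-week comparison with TAA the share was 53.2%, against 41.6%, 7.54% and 7.36% in the same order, 8.05% in log2(FPKM + 0.1) and 62.6% with the length trend removed.

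The rest of the junction machinery was followed through 7 lists, which held 95 entries, 94 of them in the table and 81 tested. In these lists 1 gene fell after 2 weeks, 1 fell after 5 weeks and none was called by edgeR between 5 and 2 weeks, beside 3.31%, 1.29% and 0.0204% of all tested genes. At an unadjusted p under 0.05 stood 19, 19 and 24 of the 81, beside 23.4%, 19.2% and 23.2% of all tested genes. DESeq2 called 8 of the 81 in each comparison, beside 1724 (11.7%), 1178 and 796 (5.40%) of 14731 genes. The gene called by edgeR was Jam2 in both comparisons with TAA. It encodes junctional adhesion molecule B, known from endothelial and other junctions. From 16.8 ± 1.87 CPM (SD) in TAA it fell to 10.7 ± 0.84 CPM in the 2-week group (log2 difference -0.65 ± 0.14, edgeR adjusted p = 0.0431). In the 5-week group it fell to 9.06 ± 1.12 CPM (-0.89 ± 0.14, edgeR adjusted p = 0.0361). The sign held in 18 of 18 alternatives and the call in 8 of 18 for each. Without any one library of the 2 groups compared the 2-week call was lost (-0.73 to -0.58), as it was without replicate 28 (-0.67), and the 5-week call was lost without any library but replicate 27 (-0.98 to -0.81). Summed endothelial markers spanned 109 to 118 CPM in TAA, 109 to 129 CPM at 2 weeks and 92.6 to 116 CPM at 5 weeks, and their part in the Jam2 difference was not tested.

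Of 10 tested other claudins, edgeR called none (1, 2 and 0 at an unadjusted p under 0.05, and 1, 1 and 0 by DESeq2), with median log2 differences of 0.02, -0.45 and -0.14. These counts stand beside the shares of all tested genes given above. Cldn4, a claudin of bile duct epithelium, had the largest differences from TAA: 18.5 ± 5.39 CPM in TAA, 5.11 ± 0.84 after 2 weeks (-1.85 ± 0.54, edgeR adjusted p = 0.0828) and 4.68 ± 3.42 after 5 weeks (-1.98 ± 0.54, edgeR adjusted p = 0.0960). Every TAA library, at 13.8 CPM or more, lay above every treated library, at 7.92 CPM or less. Groups without overlap were seen for 33.7% (2 weeks) and 25.0% (5 weeks) of all tested genes. Over 18 alternatives no Cldn4 difference from TAA changed sign, and it was called in 7 after 2 weeks and in 3 after 5 weeks. Summed cholangiocyte markers (10 genes, among them Spp1, Krt19 and Epcam) spanned 350 to 569 CPM in TAA and 292 to 405 CPM at 2 weeks. At 5 weeks they spanned 129 (replicate 23) to 391 CPM. Most of each sum was Spp1, at 301 to 476, 239 to 323 and 102 to 337 CPM in the 3 groups. Krt19 was at 6.90 to 21.6, 7.06 to 21.2 and 1.06 to 8.77 CPM. Of 9 tested markers, 2 had a difference from TAA above 0 after 2 weeks and 0 after 5 weeks. The part of these markers in the Cldn4 difference was not tested. Among those with a mean of at least 1 CPM, Cldn6, at most 2.45 CPM, had the largest difference of 5 weeks from 2 weeks (-1.13 ± 0.55).

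Among 11 other membrane proteins of the tight junction, 10 were not called and the medians were 0.00, -0.27 and -0.27. Marveld3, a relative of occludin, differed by -0.44 ± 0.18 between 5 and 2 weeks. Of 25 scaffold and polarity genes edgeR called none (5, 4 and 8 at an unadjusted p under 0.05, and 1, 1 and 3 by DESeq2), with medians of -0.23, 0.04 and 0.21. Here too the counts stand beside the shares of all tested genes given above. Among those with a mean of at least 1 CPM, Pard6a, a polarity adaptor, had the largest 2-week difference (0.61 ± 0.20, edgeR adjusted p = 0.108), and Mpdz, a scaffold with many PDZ domains, those of 5 weeks from TAA (0.75 ± 0.33) and from 2 weeks (1.25 ± 0.34).

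**Figure D5:**
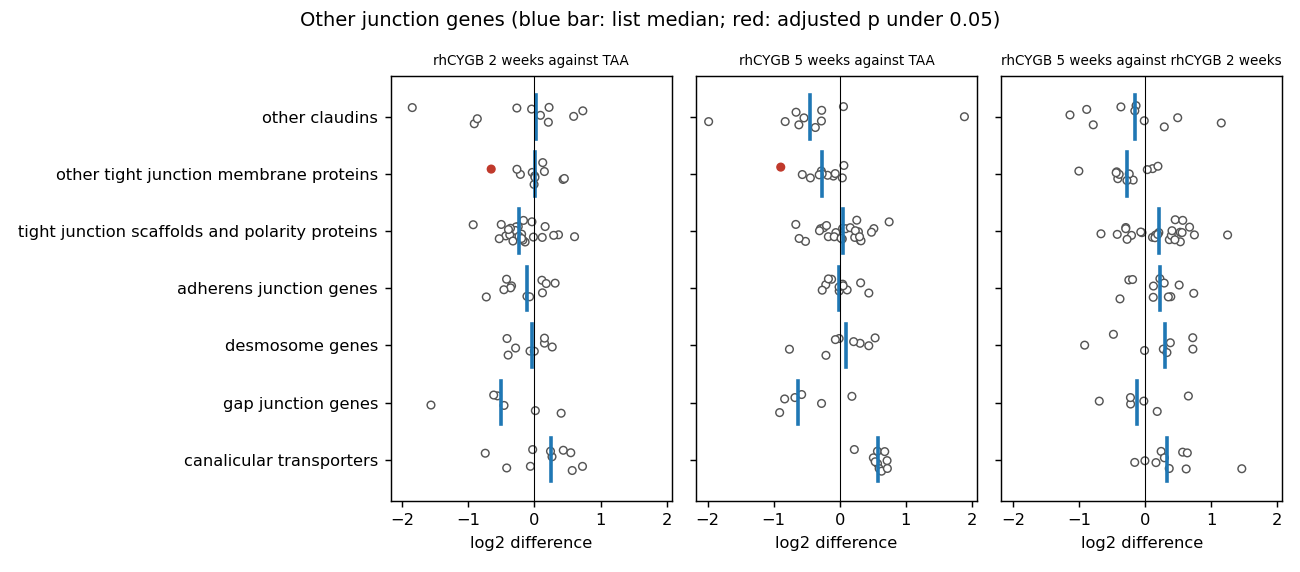
Log2 differences of 81 tested genes in 7 junction lists for the 3 comparisons, each point a gene, with the list median as a blue bar. The red points are Jam2 (-0.65 and -0.89), the called gene, and the canalicular transporters have the highest list median for 5 weeks against TAA (0.59).

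Other marker sums moved between groups beside these values. Pericentral hepatocyte markers summed to 1061 to 1437 CPM in TAA, 1870 to 1996 CPM at 2 weeks and 2088 to 2982 CPM at 5 weeks, and periportal ones to 3179 to 3831, 4737 to 5207 and 4905 to 6582. Stellate cell markers summed to 580 to 910 CPM in TAA, 416 to 576 CPM at 2 weeks and 288 to 510 CPM at 5 weeks. Macrophage markers summed to 253 to 310, 289 to 413 and 215 to 285 CPM, and mesothelial ones to 11.7 to 30.1, 9.98 to 25.1 and 4.13 to 11.7. The hepatocyte sums by group were 100243 to 113008, 111039 to 148042 and 112683 to 147554 CPM. Pericentral and periportal sums were higher in both treated groups than in TAA and stellate sums lower, while single markers differed in direction. After 2 weeks 5 of 8 pericentral, 5 of 8 periportal and 1 of 8 stellate markers had a difference above 0, and after 5 weeks 7, 6 and 1 of 8. The pericentral sum was made up mostly of Cyp2e1 and Cyp1a2, and Axin2, on the same list, had log2 differences of -0.68 ± 0.27 and 0.29 ± 0.26 from TAA (not called). Col1a1 was the largest stellate marker in every TAA library. It spanned 224.1 to 462.3 CPM in TAA, 48.03 to 178.7 CPM at 2 weeks and 29.25 to 95.04 CPM at 5 weeks. Dcn (179.1 to 217.3, 143.1 to 199.4 and 128.3 to 216.3 CPM) and Ecm1, also on the stellate list, overlapped TAA in both treated groups. Whether the lower stellate sums reflect fewer stellate cells was not tested. Beside these sums, Tjp3 lay above TAA after 2 weeks and below it after 5 weeks. The part of cell makeup in the levels of the 9 genes was not tested.

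For each of the 9 genes the 2 closest profiles among 12405 other tested genes were taken by the same distance over the 9 libraries. For Tjp3 these were Acnat2 (distance 0.14) and Cdpf1 (0.16), and for Tjp1 Alg6 (0.04) and Ncoa6 (0.06). Cldn3 was nearest to Ppib (0.06) and Eef1akmt1 (0.07), Cldn1 to Rab38 (0.10) and Ints7 (0.10), Cldn2 to Ccar2 (0.07) and Adam10 (0.08), and Cldn14 to Blcap (0.12) and Ccdc120 (0.12). Ocln was nearest to Mtus1 (0.08) and Rnf123 (0.08), and F11r to Mum1 (0.06) and Tln1 (0.07). Cldn12 had no close neighbour, with Dag1 at 1.68 and Net1 at 1.70. These distances run over 9 libraries of 3 groups and describe likeness in level only.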

How the data were processed

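Poly(A)-selected, strand-marked, paired-end RNA libraries of mouse liver were sequenced, 9 in all, in 3 groups of 3. Tools listed by the submitters' processing notes are FastQC (0.11.7), HISAT2 (2.1.0), StringTie (1.3.4d), with mm10 as genome build. Counts per gene are the authors' estimated counts, named as read counts in the file headers and already whole numbers. Levels per length are FPKM values of genes and transcripts made by the authors, under that name in the headers. How the counts were made and whether counting used strand are not given in the sources used here, so genes that overlap cannot be told apart in their shared bases.

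Low genes were dropped with filterByExpr (at least 10 reads, total at least 15) and counts scaled by TMM. The quasi-likelihood F test of edgeR 4.0.16 (R 4.3.3) was run in a single fit of the 3 groups (6 residual degrees of freedom), and p-values were adjusted by Benjamini-Hochberg over 14731 genes. SE is the absolute log2 difference over the root of F. The fit was tested on simulated data first. The common biological coefficient of variation was 24.9%. The labels do not say whether replicate numbers are separate mice, and p-values then reflect only the spread among libraries, which may be technical. Alternatives were DESeq2 1.42.0, limma 3.58.1 on log2(FPKM + 1) and log2(FPKM + 0.1) for genes with a mean FPKM of at least 0.1, other scalings, no filter, removal of the trend over gene length (lowess, span 0.3), only the 2 groups compared, and libraries left out.

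The members, the 7 junction lists and the 8 marker lists were chosen with earlier results of these data known. The text names all members, the called genes of each list (at most 4, otherwise the gene with the largest difference at a mean of at least 1 CPM) and the 2 nearest profiles of each member. Apba3, Mcm10, Abcd2, Abcc2, Abcg5, Abcb11, Abcb4, Gjb1 and Gjb2 were named after their values were seen, as were the single marker genes given with values. The transcripts whose shares were tested, NM_009386 and NM_001165926, were likewise picked by name with earlier results known. Sequences come from RefSeq windows on GRCm38.p6, in which all 9 members matched (15 windows), and from GENCODE M21. Of the Tjp3 window, 54 bases that lie in the first exon of another Tjp3 transcript were left out.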

Additional observations from a re-analysis of the deposited data

Results flagged for a closer look

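Tjp3 differed between the lengths of treatment. Its log2 difference of 5 weeks against 2 weeks was -1.09 ± 0.12 (SE, n = 3 per group), and the direct test of the 5-week against the 2-week group was called by edgeR, beside differences from TAA of 0.61 and -0.48. The call held in 8 of 18 alternatives. The gene was selected with these values in view, so the call is a description and not a test of the difference.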

How the results depend on the processing

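No paired analysis was possible because the groups share no replicate numbers. Of 27 differences of the 9 genes under 18 alternatives (486 values), 44 moved by more than the spread between replicates. The sign was kept everywhere for 17 differences and turned somewhere for 10, none of which was called. After 2 weeks 488 genes were called, and 1724 by DESeq2, 1722 with library totals alone, 1869 in log2(FPKM + 1), 1593 in log2(FPKM + 0.1), 1023 with only the 2 groups compared and 12 without replicates 17, 18 and 23 (of the 9 genes: 1, and 0 without those replicates; that 1 is Tjp3, but F11r and not Tjp3 with library totals and in both FPKM settings). For 5 weeks against TAA 190 genes were called, and 1178 by DESeq2, 77 with upper-quartile scaling, 504 with library totals, 105 with no filter, 910 and 658 in log2(FPKM + 1) and log2(FPKM + 0.1), 1 with only the 2 groups compared, 605 with the length trend removed and 7 without replicates 17, 18 and 23. There 0 of the 9 genes were called, and 2 by DESeq2 (Tjp3 and Ocln) and in log2(FPKM + 1) (Tjp3 and Cldn14), and 1 with library totals and in log2(FPKM + 0.1). For 5 weeks against 2 weeks 3 genes were called, and 796 by DESeq2, 1 in log2(FPKM + 1), 0 with only the 2 groups compared, 6 with the length trend removed and 5 without replicates 17, 18 and 23, with 1 of the 9 genes called and 0 in log2(FPKM + 1), with only the 2 groups, and without those replicates. Leaving out 1 library at a time gave 1 to 1095 genes and 0 to 2 of the 9 after 2 weeks, 0 to 240 genes and 0 to 1 of the 9 for 5 weeks against TAA, and 1 to 1889 genes and 0 to 2 of the 9 for 5 against 2 weeks. The highest gene counts came without replicate 23 (2 weeks) and without replicate 27 (the other comparisons). Settings that leave out libraries have fewer samples, and for the other alternatives the cause was not tested. Each of the 9 genes had at least 489 estimated reads in every library, except Cldn12, with 8, 5 and 239 in replicates 17, 18 and 27.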

Other observations

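The canaliculus that tight junctions seal is served by transporters in its membrane. Of 10 canalicular transporter genes, none was called by edgeR in any comparison, and for 5 weeks against TAA all 10 differences were above 0, with a median log2 difference of 0.59 beside 0.01 for all tested genes. Abcc2, the conjugated bilirubin exporter, differed by 0.60 ± 0.14 (edgeR adjusted p = 0.0723), Abcg5, a sterol half-transporter, by 0.68 ± 0.17 (edgeR adjusted p = 0.0777), and Abcb11, the bile salt export pump, by 0.57 ± 0.24 (edgeR adjusted p = 0.229). The median ranged from 0.34 to 0.66 over 18 alternatives, with 9 or 10 of the 10 genes above 0. At an unadjusted p under 0.05 edgeR had 4, 8 and 4 of the 10 (2 weeks, 5 weeks, and 5 against 2 weeks), beside 23.4%, 19.2% and 23.2% of all tested genes, and DESeq2 called 1, 5 and 2, beside 1724, 1178 and 796 of 14731. After 2 weeks the median was 0.25, where Abcb4, the phospholipid floppase, differed by 0.73 ± 0.18 (edgeR adjusted p = 0.0594), and it ranged from -0.08 to 0.39 over the alternatives. Atp7b, a copper transporter, had the largest absolute difference in each comparison (-0.74 ± 0.52, 0.72 ± 0.51 and 1.47 ± 0.52).

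Of the other cell contacts, 11 adherens junction genes had medians of -0.11, -0.01 and 0.23, and 8 desmosome genes -0.03, 0.10 and 0.31, with none called by edgeR. At an unadjusted p under 0.05 were 4, 1 and 4 of the former (DESeq2 called 1, 0 and 1) and 0, 2 and 5 of the latter (DESeq2 called 0, 0 and 2). Among all tested genes 23.4%, 19.2% and 23.2% were at an unadjusted p under 0.05, and DESeq2 called 1724, 1178 and 796 of 14731. Cdh1, the epithelial cadherin, which is also on the periportal marker list, stood at 42.3 CPM after 2 weeks and 70.1 in TAA (-0.73 ± 0.22, edgeR adjusted p = 0.0894). Cdh2, the other cadherin of hepatocytes, stood at 79.7 CPM after 5 weeks and 47.8 after 2 weeks (0.74 ± 0.18, edgeR adjusted p = 0.142). The plakophilin Pkp4 differed by 0.44 ± 0.16 for 5 weeks against TAA, the desmoplakin gene Dsp by -0.42 ± 0.22 after 2 weeks, and the envoplakin gene Evpl by -0.76 ± 0.28 and -0.91 ± 0.28 after 5 weeks against TAA and 2 weeks. Of 6 gap junction genes edgeR called none (3, 1 and 0 at an unadjusted p under 0.05, and 2, 0 and 0 by DESeq2), with medians of -0.51, -0.63 and -0.12. The same values for all tested genes stand beside these gap junction counts. Gja5, at a mean of 1.02 CPM, differed from TAA by -0.62 ± 0.37 and -0.83 ± 0.37. Gja4, at a mean of 5.35 CPM, differed by -0.69 ± 0.38 between 5 and 2 weeks. Gjb1, at 409 to 655 CPM, differed from TAA by 0.40 ± 0.13 and 0.18 ± 0.13. Gjb2, at 166 to 301 CPM, differed from TAA by -0.46 ± 0.22 and -0.27 ± 0.22. Above 0 were 2, 1 and 2 of the 6 genes in the 3 comparisons.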
